A study of Cucumis sativus with 4 samples.

Results

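The AP2/ERF transcription factors of cucumber (Cucumis sativus) were taken as the rows of the deposited expression table whose symbol belongs to this family (names beginning with ERF, RAP2, DREB, CBF, CRF, TINY, ESE, HRE, DDF, ABR1 or ORA), plus every homologue of the Arabidopsis gene AT3G23240, the ethylene response factor ERF1. This gave 55 of 18665 genes. Checked against their Arabidopsis homologues, 53 were AP2/ERF proteins and 2 were not: both rows with the symbol ERF1-3 had AT3G26618, a peptide chain release factor that shares only the letters of the name. The release factor homologues were low throughout, at 1.75 RPKM (reads scaled by gene length and by library size) in low nitrogen root and 2.53 in control root, with 1.17 in low nitrogen leaf and 1.64 in control leaf, for the copy on scaffold00696. The copy on scaffold03487 was at 2.88 and 1.91 RPKM in the same root libraries and at 1.71 and 1.01 in the same leaf libraries. They are left out of the values below unless stated.

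Plants were grown in sand for 28 days after sowing. Low nitrogen plants received 1 mM nitrate and control plants 5 mM nitrate, and the low nitrogen solution carried potassium sulfate, potassium chloride and calcium chloride in place of the missing nitrate salts, so sulfate and chloride differed too. Each group (low nitrogen root, control root, low nitrogen leaf, control leaf) was 1 library, and the labels do not say how many plants went into it. No difference below therefore has a replicate check, and plant-to-plant variation cannot be told apart from the effect of the solution.

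AP2/ERF proteins bind DNA through the AP2 domain and form one of the largest families of plant transcription factors. Ethylene response factors act at the end of the ethylene pathway, in which receptors, the kinase CTR1 and the EIN3 proteins pass the signal on, and many bind the GCC box of defence genes. DREB and CBF proteins bind the dehydration-responsive element of cold and drought genes. Group VII members (RAP2.2, RAP2.3 and RAP2.12 in Arabidopsis) are degraded in the presence of oxygen through an oxidised cysteine at their N-terminus, and activate fermentation genes when oxygen is short.

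The depth behind the libraries, read from the steps between RPKM values, was 3.98 M reads in low nitrogen root, 4.23 M in control root, 2.74 M in low nitrogen leaf and 2.93 M in control leaf. The organ labels were checked with marker homologues. All 14 leaf marker genes of photosynthesis were higher in leaf than in root under both solutions, and their summed level was 51426 RPKM in low nitrogen leaf and 105236 in control leaf, against 106 in low nitrogen root and 97.2 in control root. Of 12 root marker genes, 8 were higher in root under both solutions and 1 in leaf, with sums of 191 RPKM in low nitrogen root and 575 in control root, against 38.4 in low nitrogen leaf and 43.0 in control leaf. In low nitrogen leaf 10 of 14 leaf markers were lower than in control leaf by at least 1 on the log2 scale, with a median of -1.18, and 3 of 12 root markers were lower in low nitrogen root than in control root; the part of these shifts in the results below was not tested. In whole organs, fewer cells of a type and less RNA per cell cannot be told apart.

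Together the 53 members summed to 1897 RPKM in low nitrogen root and 1629 in control root, and to 1249.8 RPKM in low nitrogen leaf and 947 in control leaf. That was 0.285% and 0.24% of the RPKM sum of the root libraries and 0.169% and 0.123% of that of the leaf libraries, in the same order. Of the members, 31 were at 1 RPKM or more in all 4 libraries, and 5 were below 1 RPKM in all of them. A few genes carried much of the family. ERF9 (AT5G44210, scaffold00542), a repressor with an EAR motif, was at 250.4 RPKM in low nitrogen root and 177 in control root, and at 206 in low nitrogen leaf and 166 in control leaf, where it alone held 16.5% and 17.6% of the members' sum. The ERF4 homologue named RAP2.5 (AT3G15210, scaffold01352), also an EAR repressor, was at 199 RPKM in low nitrogen root and 215 in control root, against 72.0 and 62.3 in the leaf libraries in that order. The 5 highest members held 51.4% of the sum in low nitrogen root, 43.5% in control root, 47.4% in low nitrogen leaf and 47.6% in control leaf. The gene at the top differed: RAP2.3 on scaffold00919 in low nitrogen root, RAP2.5 in control root and ERF9 in both leaf libraries.

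**Figure D1:**
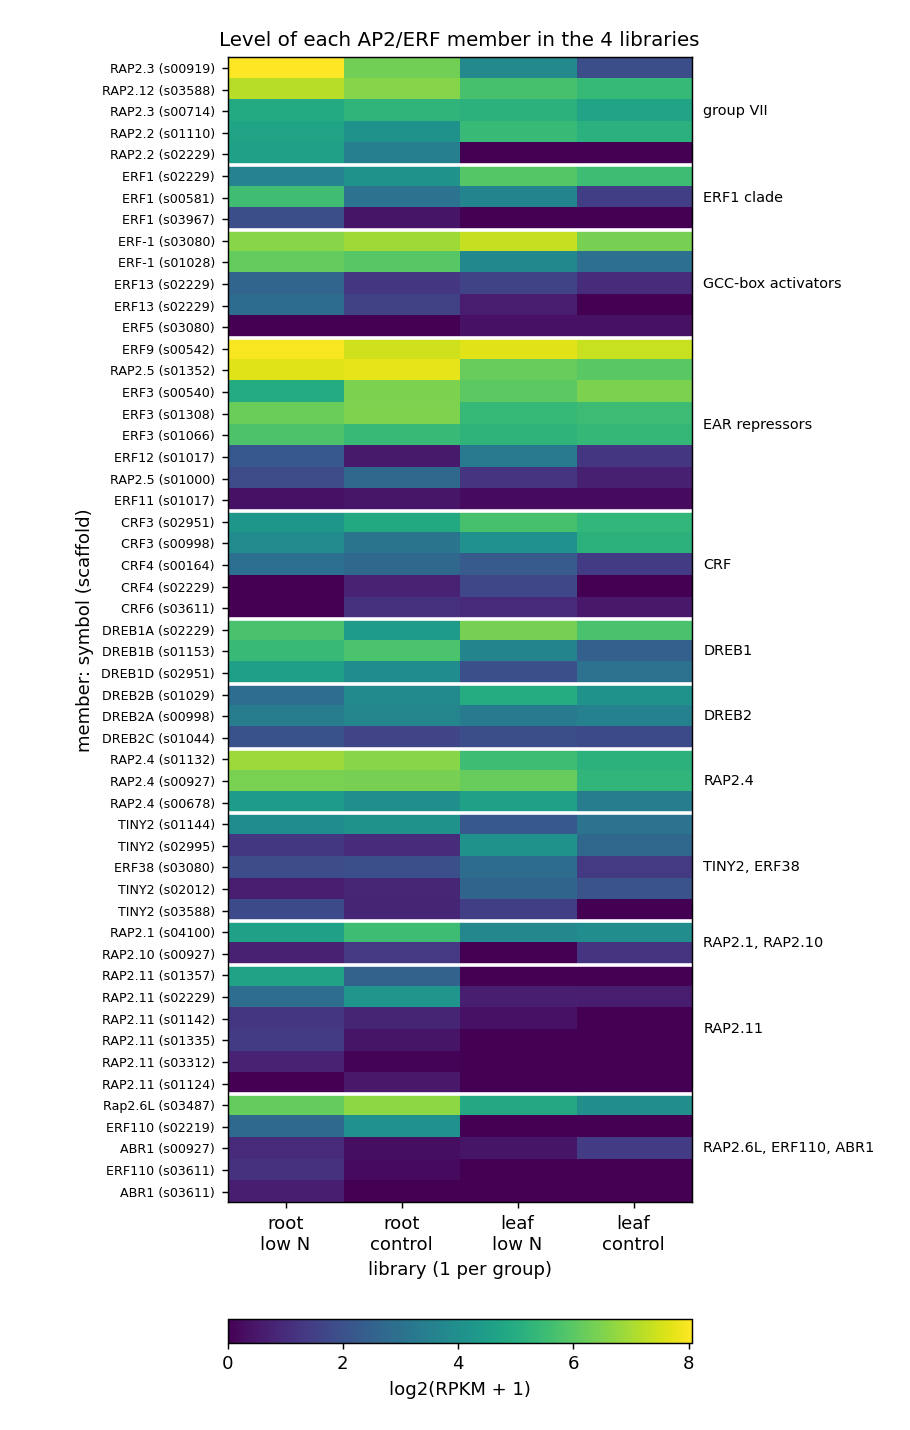
Level of the 53 AP2/ERF members as log2(RPKM + 1), by role, in low nitrogen root, control root, low nitrogen leaf and control leaf (1 library each; brighter is higher; s before a number stands for scaffold). RAP2.3 on scaffold00919 and ERF9 are the brightest in low nitrogen root, at 264 and 250.4 RPKM. In both leaf libraries, which are shallower than the root libraries, 9 members are dark at 0 RPKM.

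The first comparison asked how the family differed between low nitrogen and control root. Ratios are log2((A + 1)/(B + 1)) of RPKM, which understates changes of low genes, and a gene was compared where the libraries concerned averaged 1 RPKM or more, and counted as higher or lower at a log2 ratio of at least 1 in size. Of the 53 members 43 could be compared; low nitrogen root was higher for 9 and lower for 3, and 31 lay between. That is 20.9% higher and 7.0% lower (6.98%), where 6.17% of all 14532 genes compared were higher and 4.34% lower. The members' median log2 ratio was 0.26 and that of all genes 0.04. The higher members were 2 copies of ERF1, RAP2.11, RAP2.3, ERF12, 2 copies of ERF13, DREB1A and RAP2.2, and the lower ones ERF3, a second RAP2.11 and ERF110. At a mean of at least 5 RPKM, 5 of 31 rows were higher and 3 lower, against 5.82% and 3.98% of all genes.

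The second comparison was between low nitrogen and control leaf. Of 36 members compared, 8 were higher in low nitrogen, 2 lower and 26 between. These shares of 22.2% and 5.56% stand beside 13.6% of all 13384 genes compared that were higher and 3.59% that were lower. The median log2 ratio was 0.51 for the members and 0.33 for all genes, and 9375 of the 13384 genes compared lay above 0. Relative to the median of all genes, 6 members were higher and 4 lower of the 38 rows compared, where 5.91% and 7.51% of all genes were. The higher members in leaf were ERF1, ERF12, RAP2.3, CRF4, ERF38, TINY2, RAP2.4 and DREB1B; relative to the median of all genes RAP2.4 and DREB1B were within the threshold. CRF3 and DREB1D were lower. ERF1 and RAP2.3, each by 1 of its copies, and ERF12 were past the threshold in both organs.

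**Figure D2:**
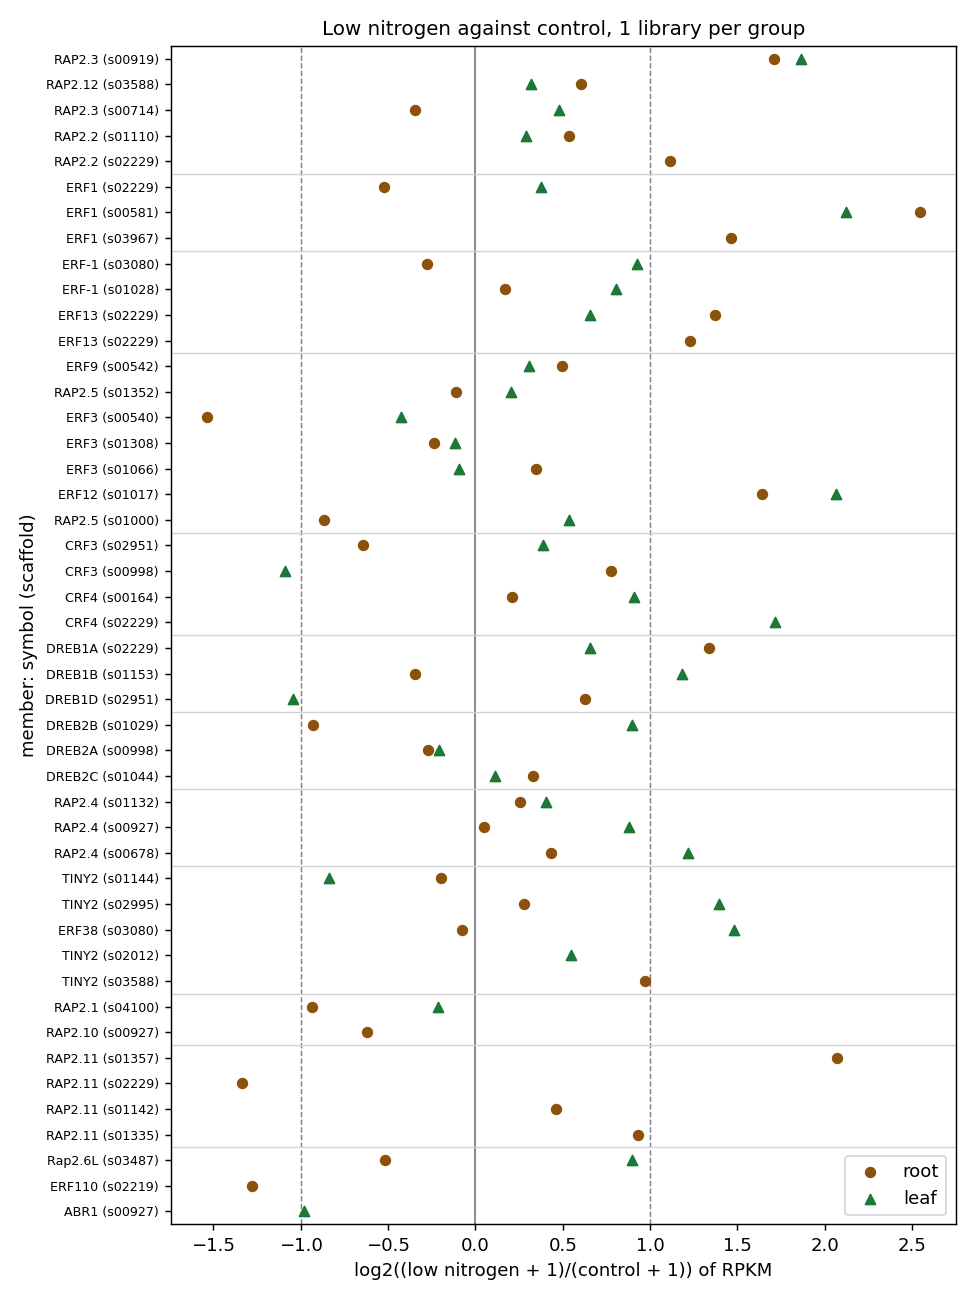
Log2 ratio of low nitrogen over control for each member compared, in root (brown circles) and in leaf (green triangles), 1 library per group, with dashed lines at -1 and 1; rows are grouped by role. ERF1 on scaffold00581 lies farthest to the right in both organs (2.54 and 2.124) and ERF3 on scaffold00540 farthest to the left in root (-1.53).

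Among group VII homologues, RAP2.3 (AT3G16770, scaffold00919) stood out. It was at 264 RPKM in low nitrogen root and 80.2 in control root, and at 12.96 RPKM in low nitrogen leaf and 2.84 in control leaf. Low nitrogen was higher in both organs, by 3.298-fold in root (95% counting interval 2.91 to 3.75) and 4.56-fold in leaf (2.07 to 11.4). The leaf value rests on 34 and 8 reads, the fewest that give the deposited values. The other RAP2.3 copy (scaffold00714) had log2 ratios of -0.34 in root and 0.48 in leaf, at 29.6 RPKM in low nitrogen root and 37.8 in control root, and at 35.3 RPKM in low nitrogen leaf and 25.02 in control leaf.

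Both RAP2.2 homologues (AT3G14230) were expressed in root, and 1 of them was listed at 0 in leaf. The copy on scaffold02229 was at 23.15 RPKM in low nitrogen root and 10.16 in control root and listed at 0 in both leaf libraries; its log2 ratio in root was 1.11. It had at most 172 and 80.1 reads in the root libraries, in that order, and no interval, because its reads could not be recovered. The copy on scaffold01110 was at 24.75 and 16.73 RPKM in low nitrogen and control root and at 41.9 and 34.1 RPKM in low nitrogen and control leaf. RAP2.12 (AT1G53910), which in Arabidopsis is held at the plasma membrane when oxygen is present, was at 144 RPKM in low nitrogen root and 94.7 in control root, 1.53-fold higher (1.41 to 1.65). In leaf it was at 51.04 and 40.7 RPKM in low nitrogen and control. Summed over all 5 copies, group VII came to 486 RPKM in low nitrogen root and 239.5 in control root, a ratio of 2.03. The sums in leaf were 141 RPKM in low nitrogen and 103 in control, a ratio of 1.37.

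Genes that act downstream of group VII in Arabidopsis were read from a list of 17 Arabidopsis genes, of which 14 were found, as 24 cucumber genes. This list and those below were chosen with earlier results of these data known, so their shares are not independent of these data. Several copies of AT4G10265 on scaffold01107 lie next to each other in the numbering of the gene models and may share reads. Of 22 compared between the root libraries, low nitrogen was higher for 14 and lower for 1, and the median log2 ratio was 2.03, where 6.17% of all genes were higher and 4.34% lower. In leaf 2 were higher and 3 lower of 16, with a median of 0.11, beside 13.6% and 3.59% of all genes; the 2 higher are about that share. The 3 alcohol dehydrogenase homologues ATADH1 (AT1G77120) had log2 ratios in root of 4.17 and 3.52 (both scaffold00793) and 3.42 (scaffold02463). The homologue of AT3G10040, a trihelix factor that restrains RAP2.12 in Arabidopsis, was at 19.6 RPKM in low nitrogen root and 0.97 in control root. The plant cysteine oxidases, which oxidise the N-terminal cysteine of group VII proteins in Arabidopsis, stand in that list. Their homologue of AT5G15120 was at 69.0 RPKM in low nitrogen root and 5.74 in control root, and that of AT5G39890 at 114 and 19.9 RPKM. A separate list of N-degron genes had 5 genes compared, and 0 were past the threshold in either organ; 1 of the 5, TED3 (AT1G79810), is a peroxisome protein homologue that does not belong to this pathway. PRT6 (AT5G02310), the ubiquitin ligase that acts on group VII, was at 4.43 RPKM in low nitrogen root and 4.30 in control root, and at 3.62 RPKM in low nitrogen leaf and 3.65 in control leaf.

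ERF1, which in Arabidopsis joins the ethylene and jasmonate signals at defence genes, had 3 homologues of AT3G23240 with unlike patterns. The copy on scaffold00581 was at 47.4 RPKM (177 reads) in low nitrogen root and 7.30 (29 reads) in control root, 6.495-fold higher (4.37 to 9.97). In leaf it was at 11.29 RPKM (29 reads) in low nitrogen and 1.82 (5 reads) in control, 6.203-fold higher (2.38 to 20.6). This copy was thus higher in low nitrogen in both organs. The copy on scaffold02229 was higher in leaf, at 60.1 RPKM in low nitrogen leaf and 46.2 in control leaf, against 10.98 in low nitrogen root and 16.21 in control root. The copy on scaffold03967 was at 2.81 RPKM (7 reads) in low nitrogen root and 0.38 (1 read) in control root, with an interval of 0.96 to 336 that includes 1, and was listed at 0 in both leaf libraries.

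**Figure D3:**
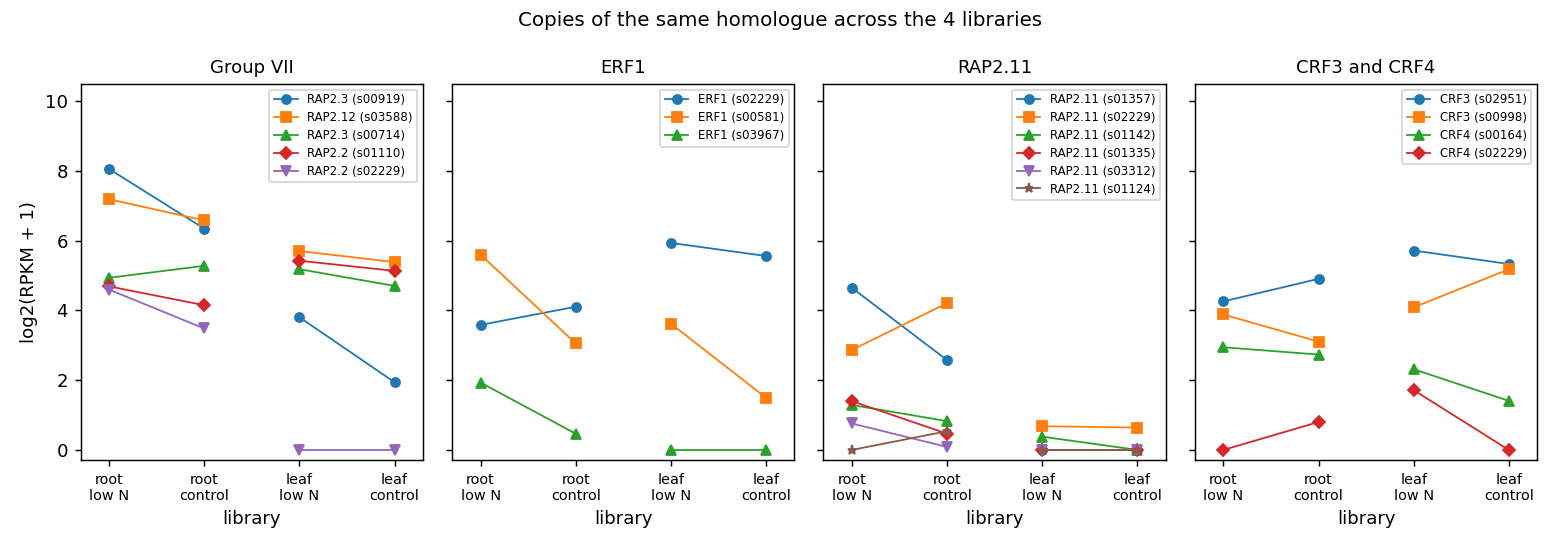
Level of each copy as log2(RPKM + 1) in low nitrogen root, control root, low nitrogen leaf and control leaf (1 library each) for group VII, ERF1, RAP2.11 and the cytokinin response factors CRF3 and CRF4; lines join the libraries of an organ. Copies of ERF1 and RAP2.11 cross in root, and the CRF3 copies slope in opposite directions without crossing. ERF1 on scaffold00581 is at 47.4 RPKM in low nitrogen root and 7.30 in control root, while ERF1 on scaffold02229 is at 10.98 and 16.21.

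The ethylene pathway above these factors was read from lists of homologues. Among 14 receptor and signalling genes, 3 were higher in low nitrogen root than in control root and 0 lower, and the median log2 ratio was 0.27, beside 6.17% and 4.34% of all genes. In leaf 1 of 13 was higher and 0 lower, with a median of 0.61, a share below the 13.6% of all genes that were higher. The F-box genes that degrade EIN3 in Arabidopsis were among them: EBF2 (AT5G25350) was at 6.99 RPKM in low nitrogen root and 1.26 in control root, and the EBF1 homologue FBL6 (AT2G25490, scaffold01037) at 22.3 and 7.42 RPKM. FBL6 on scaffold02995 was at 98.1 RPKM in low nitrogen leaf and 28.2 in control leaf. A CTR1 homologue, SIS1 (AT5G03730, scaffold00858), was at 17.7 RPKM in low nitrogen root and 7.65 in control root. EIN3 itself (AT3G20770) was at 88.4 and 71.7 RPKM in the same libraries. Of 6 ethylene synthesis genes compared in root 3 were higher and 0 lower; in leaf 0 of 5 were past the threshold.

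Defence genes that ERF1 activates in Arabidopsis were, where compared, lower in low nitrogen root or within the threshold. Of 8 compared, 4 were lower there and 0 higher; the median log2 ratio was -0.72, and 4.34% of all genes were lower. The hevein-like PR4 (AT3G04720, scaffold01037) was at 3.65 RPKM in low nitrogen root and 22.9 in control root. The lower 3 of the PR3 basic chitinase copies (AT3G12500, all scaffold00542) were at 11.15 and 27.2 RPKM, at 27.0 and 58.8 RPKM, and at 3.88 and 9.27 RPKM in low nitrogen and control root. These 3 lie close together in the numbering of the gene models and may share reads. In leaf 0 of 5 were past the threshold in either direction, beside 13.6% of all genes higher and 3.59% lower.

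The other activators of the GCC box included the ERF1A homologues ERF-1 (AT4G17500), which were abundant. The copy on scaffold03080 was at 97.4 RPKM in low nitrogen root and 118 in control root, and at 159.8 RPKM in low nitrogen leaf and 83.5 in control leaf, 1.91-fold higher in leaf (1.61 to 2.28). The copy on scaffold01028 was mainly in root, at 69.6 RPKM in low nitrogen root and 61.7 in control root, against 12.5 in low nitrogen leaf and 6.74 in control leaf. Both ERF13 homologues (AT2G44840, scaffold02229) were low. The first was at 6.13 RPKM (17 reads) in low nitrogen root and 2.04 (6 reads) in control root, 3.00-fold higher (1.13 to 9.33). The second was at 5.22 RPKM and 1.40 RPKM in those libraries, with an interval of 0.71 to 36.7 that includes 1. They lie next to each other in the numbering of the gene models and may share reads. ERF5 (AT5G47230) had 0 reads in both root libraries and 1 read in each leaf library.

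EAR repressors, which recruit corepressors to the genes they bind, were the most abundant role, with 8 members that summed to 616 RPKM in low nitrogen root and 619 in control root. In leaf they summed to 431 RPKM in low nitrogen and 402.5 in control. The second RAP2.5 copy (scaffold01000) was low, at 2.63 RPKM in low nitrogen root and 5.62 in control root, and at 1.39 RPKM in low nitrogen leaf and 0.65 in control leaf. ERF3 (AT1G50640) had 3 copies, of which 1 differed in root. On scaffold00540 it was at 29.7 RPKM (107 reads) in low nitrogen root and 88.0 (337 reads) in control root, 2.96-fold lower (2.38 to 3.72). In leaf this copy was at 64.1 and 86.6 RPKM in low nitrogen and control. The copy on scaffold01308 was at 74.8 RPKM in low nitrogen root and 88.3 in control root, and the one on scaffold01066 at 55.0 and 43.1 RPKM. Among the EAR repressors with a log2 ratio above 1, ERF12 (AT1G28360) was the only one in these libraries. It was at 3.65 RPKM (7 reads) in low nitrogen root and 0.49 (1 read) in control root, an interval of 0.96 to 336 that includes 1. In leaf it was at 9.08 RPKM (12 reads) in low nitrogen and 1.41 (2 reads) in control, 6.44-fold higher (1.43 to 59.2). ERF11 (AT1G28370), which limits ethylene synthesis in Arabidopsis, was below 1 RPKM in all 4 libraries, at 0.32 in low nitrogen root, 0.40 in control root, 0.19 in low nitrogen leaf and 0.18 in control leaf.

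Cytokinin response factors, which carry part of the cytokinin response in Arabidopsis, had 5 members, and both copies of CRF3 had log2 ratios of opposite sign in root and leaf. CRF3 (AT5G53290) on scaffold00998 was at 13.75 RPKM in low nitrogen root and 7.60 in control root, 1.81-fold higher (1.25 to 2.65). In leaf it was at 16.0 RPKM (64 reads) in low nitrogen and 35.2 (151 reads) in control, 2.201-fold lower (1.63 to 3.00). CRF3 on scaffold02951 was at 18.1 RPKM in low nitrogen root and 28.9 in control root, and at 51.55 RPKM in low nitrogen leaf and 39.2 in control leaf. Root was thus lower and leaf higher for this copy, with log2 ratios of -0.65 and 0.39. Relative to the leaf median of all genes of 0.33, its leaf log2 ratio was only 0.06. CRF4 (AT4G27950) on scaffold00164 was at 6.68 and 5.65 RPKM in low nitrogen and control root and at 3.97 and 1.65 RPKM in low nitrogen and control leaf. CRF4 on scaffold02229 was at 2.28 RPKM in low nitrogen leaf and listed at 0 in control leaf, a log2 ratio of 1.71 with at most 6.3 reads behind it. It was listed at 0 in low nitrogen root and at 0.74 RPKM in control root. CRF6 (AT3G61630), tied to leaf senescence in Arabidopsis, was listed at 0 in low nitrogen root and at 1.24 RPKM in control root, and was at 0.96 RPKM in low nitrogen leaf and 0.45 in control leaf. Of 11 cytokinin response regulators compared in root 0 were higher and 1 lower, beside 6.17% and 4.34% of all genes. The lower gene was the ARR4 homologue MEE7 (AT1G10470), at 4.79 RPKM in low nitrogen root and 27.7 in control root. In leaf MEE7 was at 17.6 and 54.4 RPKM, the 1 lower gene of 11, and RR12 (AT2G25180, scaffold01037) was the 1 higher gene, at 5.16 and 1.27 RPKM in low nitrogen and control.

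The DREB1 homologues, named after the CBF factors of cold acclimation, had 3 members with 3 patterns. DREB1A (AT4G25480) was at 52.6 RPKM (242 reads) in low nitrogen root and 20.2 (99 reads) in control root, 2.599-fold higher (2.05 to 3.32). In leaf it was at 83.3 RPKM in low nitrogen and 52.4 in control, 1.59-fold higher (1.31 to 1.93). DREB1B (AT4G25490) was at 41.7 RPKM in low nitrogen root and 53.35 in control root. In leaf it was at 11.5 RPKM (19 reads) in low nitrogen and 4.52 (8 reads) in control, 2.55-fold higher (1.06 to 6.72). DREB1D (AT5G51990) was at 22.1 RPKM in low nitrogen root and 14.0 in control root, and at 2.92 RPKM (5 reads) in low nitrogen leaf and 7.09 (13 reads) in control leaf. The counting interval of its leaf ratio, 0.12 to 1.23, includes 1.

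DREB2 homologues, of the drought and heat response, did not pass the threshold. DREB2B (AT3G11020) came closest, at 6.34 RPKM in low nitrogen root and 12.99 in control root, and at 30.7 RPKM in low nitrogen leaf and 16.1 in control leaf; its log2 ratios were -0.93 and 0.90. DREB2A (AT5G05410) lay between 9.03 and 11.59 RPKM in all 4 libraries and DREB2C (AT2G40340) between 2.21 and 3.04 RPKM. A list of 14 cold and drought genes of Arabidopsis had 5 found, as 6 cucumber genes. Not every gene of the list need be a target of DREB factors. Of 6 compared in root, 1 was higher in low nitrogen and 0 lower. Of all genes 6.17% were higher and 4.34% lower. The higher gene of the list was the galactinol synthase GolS2 (AT1G56600, scaffold01044), at 9.89 RPKM in low nitrogen root and 3.10 in control root. In leaf RD29B (AT5G52300) was the 1 higher gene of 5, at 3.31 RPKM in low nitrogen and 0.39 in control. None was lower, where 13.6% of all genes were higher in leaf and 3.59% lower.

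The remaining DREB-type members were TINY2, ERF38, RAP2.1, RAP2.10 and RAP2.4. RAP2.4 (AT1G78080), a regulator of light and drought responses, had 3 copies. The one on scaffold00678 was at 23.4 RPKM in low nitrogen leaf and 9.50 in control leaf, a log2 ratio of 1.22, and at 20.6 and 14.97 RPKM in low nitrogen and control root. The 2 more abundant copies lay between 82.6 and 116 RPKM in root and had log2 ratios in leaf of 0.88 (scaffold00927) and 0.40 (scaffold01132). TINY2 (AT5G11590) had 4 copies. On scaffold02995 it was at 16.0 RPKM (30 reads) in low nitrogen leaf and 5.48 (11 reads) in control leaf, 2.92-fold higher (1.42 to 6.46), against 1.47 and 1.04 RPKM in low nitrogen and control root. On scaffold01144 it was at 14.1 RPKM in low nitrogen root and 16.3 in control root, with 3.68 and 7.35 RPKM in low nitrogen and control leaf. The other 2 copies, on scaffold02012 and scaffold03588, were at 5.08 RPKM or less in every library. ERF38 (AT2G35700) was at 6.17 RPKM (11 reads) in low nitrogen leaf and 1.57 (3 reads) in control leaf, 3.93-fold higher (1.04 to 21.9). In root it was at 2.7 and 2.9 RPKM in low nitrogen and control. RAP2.1 (AT1G46768), a repressor of DREB target genes in Arabidopsis, was at 23.6 RPKM in low nitrogen root and 45.9 in control root, 1.95-fold lower (1.496 to 2.55), a log2 ratio of -0.93 within the threshold. RAP2.10 was at 1.55 RPKM or less in every library.

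RAP2.11 (AT5G19790), which acts in the root response to low potassium in Arabidopsis, was the most copied homologue, with 6 members. None exceeded 0.60 RPKM in either leaf library, and 2 of the 6 were high enough to be compared between leaf and root, both lower in leaf. On scaffold01357 it was at 23.98 RPKM (41 reads) in low nitrogen root and 4.95 (9 reads) in control root, 4.84-fold higher (2.32 to 11.3). The copy on scaffold02229 went the other way, at 6.30 RPKM in low nitrogen root and 17.5 in control root, a log2 ratio of -1.34. The other 4 copies were between 0 and 1.63 RPKM in root. The 6 copies summed to 34 RPKM in low nitrogen root and 24.1 in control root.

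Of the wound and regeneration factors, Rap2.6L (AT5G13330) was abundant in root, at 70.3 RPKM in low nitrogen and 101 in control, and at 28.2 RPKM in low nitrogen leaf and 14.7 in control leaf. ERF110 (AT5G50080, scaffold02219) was at 5.96 RPKM in low nitrogen root and 15.9 in control root, a log2 ratio of -1.28, and was listed at 0 in both leaf libraries. The second ERF110 copy (scaffold03611) and both ABR1 homologues (AT5G64750), named after a repressor of abscisic acid responses, were at 1.68 RPKM or less in every library.

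The third comparison was leaf against root. On the control solution 5 of 39 members were higher in leaf (12.8%) and 18 lower (46.2%), where 17.6% of 14711 genes were higher and 40.4% lower. On low nitrogen 8 of 42 were higher (19.0%) and 16 lower (38.1%), beside 20% and 31.2% of 15057 genes. On the control solution these shares were near those of all genes, with medians of -0.89 for members and -0.65 for all genes. On low nitrogen only the share higher was as near, and the medians were -0.58 and -0.3. With median ratio scaling of the libraries, 9 rows were higher in leaf and 12 lower on the control solution (21.4% and 28.6%). These were again near the 24.7% and 28.2% of all genes, so the split depends on the scaling. That scaling gave 9 higher and 16 lower on low nitrogen (20.5% and 36.4%), beside 23.2% and 26.6% of all genes. The members highest in leaf relative to root on the control solution were CRF3 on scaffold00998 (35.2 RPKM in leaf and 7.60 in root), TINY2 on scaffold02995 (5.48 and 1.04), ERF1 on scaffold02229 (46.2 and 16.21), DREB1A (52.4 and 20.2) and TINY2 on scaffold02012 (3.16 and 0.82). The lowest was RAP2.3 on scaffold00919, at 2.84 RPKM in leaf and 80.2 in root, a log2 ratio of -4.40. It was followed by ERF110 on scaffold02219, RAP2.11 on scaffold02229 (0.56 and 17.5 RPKM), RAP2.2 on scaffold02229 and DREB1B (4.52 and 53.35 RPKM). In both leaf libraries 9 members were listed at 0, and 1, ERF5, was listed at 0 in both root libraries. The leaf libraries were shallower. Of all 18665 genes, 16234 and 15762 were above 0 in low nitrogen and control leaf, against 17141 and 17054 in low nitrogen and control root. The share of all genes at 0 in both libraries of an organ was not computed. RAP2.11 on scaffold01357, at 0 in leaf, was at least 9.41-fold lower there than in low nitrogen root, against a floor of 3 reads.

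**Figure D4:**
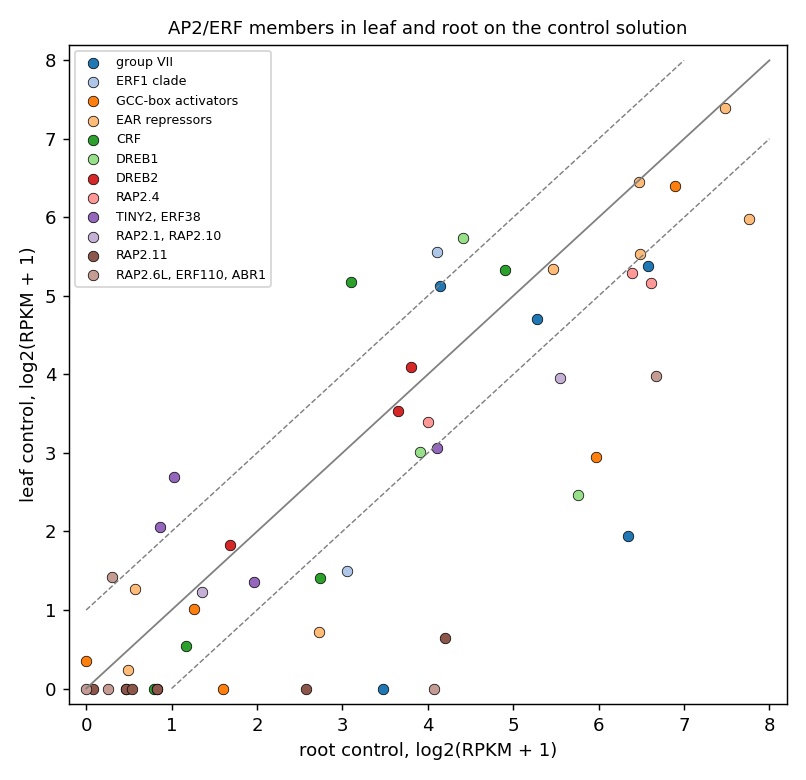
Level of each member in leaf (vertical) against root (horizontal) on the control solution, as log2(RPKM + 1), coloured by role, with the line of equal level and dashed lines at a log2 difference of 1. Points below the lower dashed line include RAP2.3 on scaffold00919 (2.84 RPKM in leaf, 80.2 in root), and CRF3 on scaffold00998 lies above the upper one (35.2 and 7.60 RPKM).

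The last comparison set the leaf ratio of low nitrogen over control against the root ratio. The leaf ratio exceeded the root ratio by at least 1 on the log2 scale for 11 of 40 members (27.5%) and fell short by as much for 4 (10.0%). Of all 14975 genes 16.5% and 7.03% did so, with a median difference of 0.27, and 0.47 for the members. With median ratio scaling 7 rows exceeded and 5 fell short (16.7% and 11.9%), beside 9.8% and 11.4% of all genes. The widest positive differences were those of DREB2B (1.83), ERF38 (1.56) and DREB1B (1.53). The widest negative ones were those of RAP2.11 on scaffold01357 (-2.07), CRF3 on scaffold00998 (-1.87) and DREB1D (-1.67). That RAP2.11 copy and RAP2.2 on scaffold02229, both among the 4, were listed at 0 in both leaf libraries. So was ERF110 on scaffold02219, among the 11. Their differences are only the root ratio with its sign turned. RAP2.11 on scaffold02229, also among the 11, was at 0.60 and 0.56 RPKM in low nitrogen and control leaf.

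Of the 30 Arabidopsis homologues behind the 53 members, 14 had several cucumber copies, which made up 37 members. Copies of 1 homologue often differed in organ or in direction, as for RAP2.3, RAP2.2, ERF1, CRF3, RAP2.11 and ERF3. The sources used here do not say how reads that match several copies were counted. With copies of a homologue summed, low nitrogen was higher for 5 of 27 and lower for 1 in root, and higher for 4 of 25 and lower for 1 in leaf. Over all summed homologues 5.1% were higher and 3.7% lower in root, and 12.9% and 3.11% in leaf, so the members' 16% higher in leaf was near the share of all.

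The symbol rule missed another 60 genes whose homologue is an AP2/ERF or RAV protein, most of them without a symbol. In root 37 of them were compared, of which 6 were higher in low nitrogen and 4 lower (16.2% and 10.8%, beside 6.17% and 4.34% of all genes). In leaf 25 were compared, of which 6 were higher (24%) and 0 lower, beside 13.6% and 3.59% of all genes. The widest root ratios among them, chosen after their values were seen, were those of a homologue of AT5G25190 on scaffold02500, at 27.9 RPKM in low nitrogen root and 2.65 in control root, and of 2 homologues of AT3G23230. The first of these (scaffold03882) was at 4.62 RPKM in low nitrogen root and listed at 0 in control root, and the other (scaffold02229) was listed at 0 and at 3.13 RPKM.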

How the data were processed

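The authors deposited 1 table of RPKM values for 18665 genes with gene length, symbol and Arabidopsis homologue, per the file headers. The aligner was Bowtie 0.12.9 according to the submitters' processing notes. The sources used here do not name the genome build, annotation or counting program. The labels name a gene expression kit without saying whether reads cover whole transcripts or only tags; levels of different genes can be set side by side only if they cover whole transcripts. By gene ID 0 members matched the RefSeq gene table, so no coordinates are printed.

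Ratios used the deposited RPKM with a pseudocount of 1, a mean of at least 1 RPKM and a threshold of 1 on the log2 scale. With 1 library per group no p-value was computed. Depths were recovered as the value that makes RPKM times length whole most often (tolerance 0.00501 RPKM). Of 53 members 23 were whole at their deposited length, and for 12 the fewest whole reads at a shorter length were taken (at least 3 libraries above 0). For the other 18 no interval is given, and reads printed as "at most" use the deposited length. Intervals of ratios are exact conditional Clopper-Pearson 95% intervals, and with the floor of 3 reads they cover counting error only. The ratio and depth code was tested on simulated data. Python 3.11.15 with numpy 2.4.6, pandas 2.3.3, scipy 1.17.1 and matplotlib 3.10.9 was used.

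The members, role groups and gene lists were chosen with earlier results of these data known, and ERF110 was put in its role group after the table was seen. Named are members past the threshold in root or leaf, the 5 highest per library, all of group VII, the cytokinin response factors and ERF1, the 5 at each end of leaf against root, and up to 4 genes per other list; other genes named to complete a group were chosen after their values were seen. Alternatives varied the pseudocount, the filter, the scaling, the summing of copies and the release factors.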

Additional observations from a re-analysis of the deposited data

Results flagged for a closer look

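In 4 members low nitrogen went opposite ways in root and leaf, also with the leaf taken relative to its median of all genes. At least 1 of the log2 ratios was past 1 in size, and so was their difference. The share of all genes that meet this rule was not computed, so the count of 4 cannot be set against it. Each group is 1 library, so the difference was not tested. The leaf log2 ratio minus the root log2 ratio was 1.56 for ERF38 (AT2G35700), with 1.48 in leaf and -0.08 in root, where the root value is close to 0. It was 1.53 for DREB1B (AT4G25490), with 1.18 in leaf and -0.35 in root. It was -1.67 for DREB1D (AT5G51990), with -1.04 in leaf and 0.63 in root. It was -1.87 for CRF3 (AT5G53290, scaffold00998), with -1.09 in leaf and 0.78 in root. The leaf value of DREB1D rests on 5 and 13 reads in low nitrogen and control, with a counting interval that includes 1. With a pseudocount of 5 the leaf log2 ratios of all 4 were within 1 in size. Relative to the leaf median of all genes of 0.33, the leaf log2 ratios were 1.15 for ERF38, 0.85 for DREB1B, -1.38 for DREB1D and -1.42 for CRF3.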

How the results depend on the processing

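Of 279 log2 ratios of named members recomputed under the alternatives, 0 of those past the threshold changed sign. This could not have come out otherwise and is no check. A pseudocount cannot change a sign, and the filters and the removal of the release factors leave a ratio unchanged. The scalings and the median of all genes move the low nitrogen ratios by less than the threshold. Counts are given as rows of all 55 the rule finds. With a pseudocount of 5, 4 were higher and 1 lower in low nitrogen root (8.89% and 2.22%, beside 2.59% and 1.84% of all genes). That pseudocount left 4 of 38 higher and 0 lower in low nitrogen leaf, beside 4.51% and 1.49% of all genes. It left 3 higher in leaf than root on the control solution (7.32%, beside 12.4%) and 4 on low nitrogen (9.09%, beside 13.7%). A higher leaf than root ratio was left for 6 (14.3%, beside 6.56%). With a pseudocount of 0.1, 6 were lower in root (13.3%, beside 6.28% of all genes). At a mean of at least 5 RPKM, 5 were higher in root (16.1%, beside 5.82% of all genes). On the control solution 3 were then higher in leaf than root (10.7%, beside 18.8%). With median ratio scaling 4 of 38 were lower in low nitrogen leaf, beside 8.46% of all genes. Under it 9 were higher in leaf than root on the control solution (21.4%, beside 24.7%), and 7 had a higher leaf ratio (16.7%, beside 9.8%). Upper quartile scaling also left 4 of 38 lower in leaf, beside 7.65% of all genes. It also left 7 with a higher leaf ratio, a share of 16.7% that was above that of all genes. Equal RPKM sums left 1 lower in leaf (2.78%, beside 3.22% of all genes). Relative to the median of all genes 4 of 38 were lower in leaf, beside 7.51% of all genes. On that measure 10 were lower in leaf than root on the control solution (24.4%, beside 25.5%), and 6 had a higher leaf ratio (14.3%, beside 8.75%). With copies summed, fewer units were compared. In root 5 were higher and 1 lower (18.5% and 3.7%, beside 5.1% and 3.7% of all). In leaf they were 4 and 1 (16% and 4%, beside 12.9% and 3.11%). For leaf against root they were 2 and 11 on the control solution (7.69% and 42.3%, beside 16.8% and 38.9%). On low nitrogen they were 3 and 9 (11.5% and 34.6%, beside 19.2% and 29%). For the difference they were 7 and 1 (26.9% and 3.85%, beside 16.1% and 5.81%). The cause was not tested, beyond the smaller number compared with copies summed or the higher filter.

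Under a pseudocount of 5 the root ratios of ERF12, ERF110, RAP2.2, RAP2.11 (scaffold02229), both ERF13 copies and ERF1 (scaffold03967) fell within the threshold, and so did the leaf ratios of RAP2.4 (scaffold00678), CRF3 (scaffold00998), DREB1B, CRF4 (scaffold02229), DREB1D and ERF38. DREB1D in leaf also fell within it with equal RPKM sums, and RAP2.4 and DREB1B under median ratio scaling, upper quartile scaling and relative to the median of all genes. ERF1 (scaffold00581), RAP2.3 (scaffold00919), ERF3 (scaffold00540), RAP2.11 (scaffold01357) and DREB1A stayed past it in root in all 9 alternatives run on single genes. Of these, the filters and the removal of the release factors leave the ratio of a single gene unchanged. Only the pseudocounts, the scalings and the median of all genes could move it. Of the 9 root members past the threshold with reads recovered, 6 had a counting interval that excluded 1, and of 8 in leaf, 7. These intervals are not relative to the leaf median of all genes, a log2 ratio of 0.33. The intervals of DREB1B and ERF38 in leaf start at 1.06 and 1.04, below that shift. No paired analysis was possible because each group is 1 library.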
